A study of Homo sapiens with 12 samples.

Results

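HSBP1L1 and TXNL4A lie tail to tail on the long arm of human chromosome 18, and the last bases of their spans overlap. The locus described here comprises every measured CpG from 1500 bp below the start of HSBP1L1 to 1500 bp above the end of TXNL4A, chr18:79963143-80035436 of hg38, a stretch of 72294 bp. It held 282 of the 3689712 CpGs in the table of 5-methylcytosine (5mC) and 278 of the 3534314 in the table of 5-hydroxymethylcytosine (5hmC). All 278 were in both tables. The cells were SV-HUC-1, a human urothelial epithelial line immortalised with SV40, and thus a single line and not primary tissue. Cells of the DCBQ group had been given 2,6-dichloro-1,4-benzoquinone, a chlorinated quinone that forms during disinfection of drinking water, for 3 days, and control cells a blank solution for the same time. For each condition the labels give 3 libraries of reduced representation bisulfite sequencing (RRBS) and 3 of its oxidative form (oxRRBS), and the deposited tables give both marks for 3 DCBQ samples (DCBQ1 to DCBQ3) and 3 control samples (Control1 to Control3). No dose is given in the sources used here.

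The locus was chosen by measured 5mC: the body of HSBP1L1, and a 1 kb tile inside it, had been among the strongest differences between DCBQ and control cells in these same 6 samples. The 5mC differences below are therefore a description and carry no test. The 5hmC table was not used in that choice, but both marks come from the same cells and related libraries, so 5hmC is not an independent check. All differences are DCBQ minus control, in percentage points, with the standard error (SE) from the spread of sample values. The groups are called apart where every sample of one lies above every sample of the other. A level is an average over the DNA of many cells.

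5mC is the methyl mark that DNA methyltransferases place on cytosines of CpG pairs, and TET enzymes oxidise it to 5hmC. CpG-rich promoters of active genes are usually free of 5mC, while the bodies of the same genes are usually heavily methylated. HSBP1L1 is a paralogue of HSBP1, a small coiled-coil protein that binds heat shock factor 1. TXNL4A encodes a thioredoxin-fold protein of the U5 small nuclear ribonucleoprotein, a core particle of the spliceosome.

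HSBP1L1 (gene ID 440498) runs on the plus strand over chr18:79964643-79970822, 6180 bp. TXNL4A (gene ID 10907) runs on the minus strand over chr18:79970813-80033936, 63124 bp, and has 2 annotated starts, an outer one at its upper end and an inner one at position 79988563. The 250 bases before the start of HSBP1L1 and before the inner start of TXNL4A are shown because they carry the densest measured CpGs of the locus and were nearly free of 5mC in every sample. They are the RefSeq sequences of GRCh38.p14, 5′ to 3′ on the strand of the gene, and capitals mark the CpGs.
HSBP1L1, chr18:79964393-79964642 (+): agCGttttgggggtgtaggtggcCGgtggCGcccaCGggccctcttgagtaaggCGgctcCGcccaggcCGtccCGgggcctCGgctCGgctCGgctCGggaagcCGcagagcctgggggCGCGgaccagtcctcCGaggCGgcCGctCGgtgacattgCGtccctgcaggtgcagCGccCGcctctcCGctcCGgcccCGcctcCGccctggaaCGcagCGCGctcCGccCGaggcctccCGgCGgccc
TXNL4A inner start, chr18:79988564-79988813 (−): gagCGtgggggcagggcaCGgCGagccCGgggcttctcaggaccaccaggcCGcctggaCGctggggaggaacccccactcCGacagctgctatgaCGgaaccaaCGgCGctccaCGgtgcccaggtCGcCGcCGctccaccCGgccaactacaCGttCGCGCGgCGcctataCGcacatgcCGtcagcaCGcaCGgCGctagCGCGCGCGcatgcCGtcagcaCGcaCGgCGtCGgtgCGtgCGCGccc

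The HSBP1L1 sequence holds 33 CpGs and that of TXNL4A 37, against a median of 11 over 35116 promoters of the same length, and every one of these CpGs was measured. Fewer CpGs than HSBP1L1 were found in 91.9% of promoters, and fewer than the inner TXNL4A start in 96%. The letters GGGCGG, the core of the GC box, occur 3 times before HSBP1L1 on either strand and 0 times before the inner TXNL4A start, and 42.6% of all promoters hold them (each match includes a CpG). CCAAT (32% of promoters) and the paired heat shock element letters GAANNTTC (5.8%) and TTCNNGAA (6.6%) have 0 matches in both, searched on both strands. No CpG within the outer TXNL4A promoter window was measured.

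Over the 33 promoter CpGs of HSBP1L1, mean 5mC was 1.18%, 1.29% and 1.08% in DCBQ1 to DCBQ3, against 1.95%, 1.27% and 1.62% in Control1 to Control3. The groups overlapped at this near-zero level, and the highest value of any of these CpGs in any sample was 16.3%. Mean 5hmC there was 1.08%, 0.741% and 1.30% in DCBQ samples, against 0.730%, 1.56% and 0.834% in controls. Over the 37 promoter CpGs of the inner TXNL4A start, mean 5mC was 0.357%, 0.243% and 0.603% in DCBQ samples, against 0.819%, 0.559% and 0.911% in controls, with overlap between the groups. Of these CpGs, 17 were at 0 in all 6 samples.

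Over all of its CpGs, the locus had slightly less 5mC and slightly more 5hmC in DCBQ cells. Mean 5mC over 282 CpGs was 34.3%, 34.5% and 34.2% in DCBQ1 to DCBQ3, against 35.6%, 35.05% and 35.2% in Control1 to Control3. The groups were apart, with a difference of -0.932 points (SE 0.184). Over all CpGs of the genome the same samples read 54.058%, 54.239% and 54.084% in DCBQ, against 54.72%, 54.448% and 54.46% in controls, so the shift at the locus sits on a genome-wide one. After each sample's genome-wide mean was subtracted, the locus differed by -0.516 points. The median of the 282 differences at single CpGs was -0.0333 points, while the difference between the groups' mean sample medians was 0.167 points, in the other direction.

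By CpG, 143 of the 282 were lower in DCBQ, where 49.2% of all CpGs were, 95 were higher and 44 were equal. The groups were apart at 13 CpGs on the lower side, where 4.32% of all CpGs were, and at 5 on the higher side, where 3.11% of all CpGs were. These counts were close to that background. limma called 0 of the 3419211 CpGs of the genome whose 5mC varied (160342 at an unadjusted p under 0.05) and 3 of the CpGs tested for 5hmC (8.49e-05% of all CpGs), 0 of them in the locus. A loss of at least 10 points was seen at 9 CpGs (4.84% of all CpGs) and a gain of that size at 1 (3.53% of all CpGs).

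Mean 5hmC over the 278 CpGs was 2.18%, 1.90% and 2.71% in DCBQ samples, against 1.59%, 1.81% and 1.74% in controls. DCBQ3 was highest and the groups were apart by a narrow margin, with a difference of 0.552 points (SE 0.246, two-sided exact permutation p = 0.1, the smallest that 3 samples against 3 allow). Without DCBQ3 the difference was 0.329 points, and the median over CpGs differed by 0 points. After each sample's genome-wide 5hmC mean was subtracted, the difference was 0.455 points. By CpG, 127 were higher, 94 lower (43.7% of all CpGs) and 57 equal. The groups were apart at 11 CpGs on the higher side (2.79% of all CpGs) and at 3 on the lower side (2.59% of all CpGs). A gain of at least 10 points was seen at 7 CpGs (2.44% of all CpGs) and a loss of that size at 1 (2.12% of all CpGs).

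At the borders of the locus, the last CpG left out below it, at 79962558, read 0% in DCBQ and 4.93% in controls, and the first taken in, at 79964069, read 37.6% in DCBQ and 32.3% in controls. The last taken in, at 80034710, read 6.87% in DCBQ and 9.03% in controls, and the first left out above it, at 80040002, read 68.3% in DCBQ and 71.2% in controls.

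**Figure D1:**
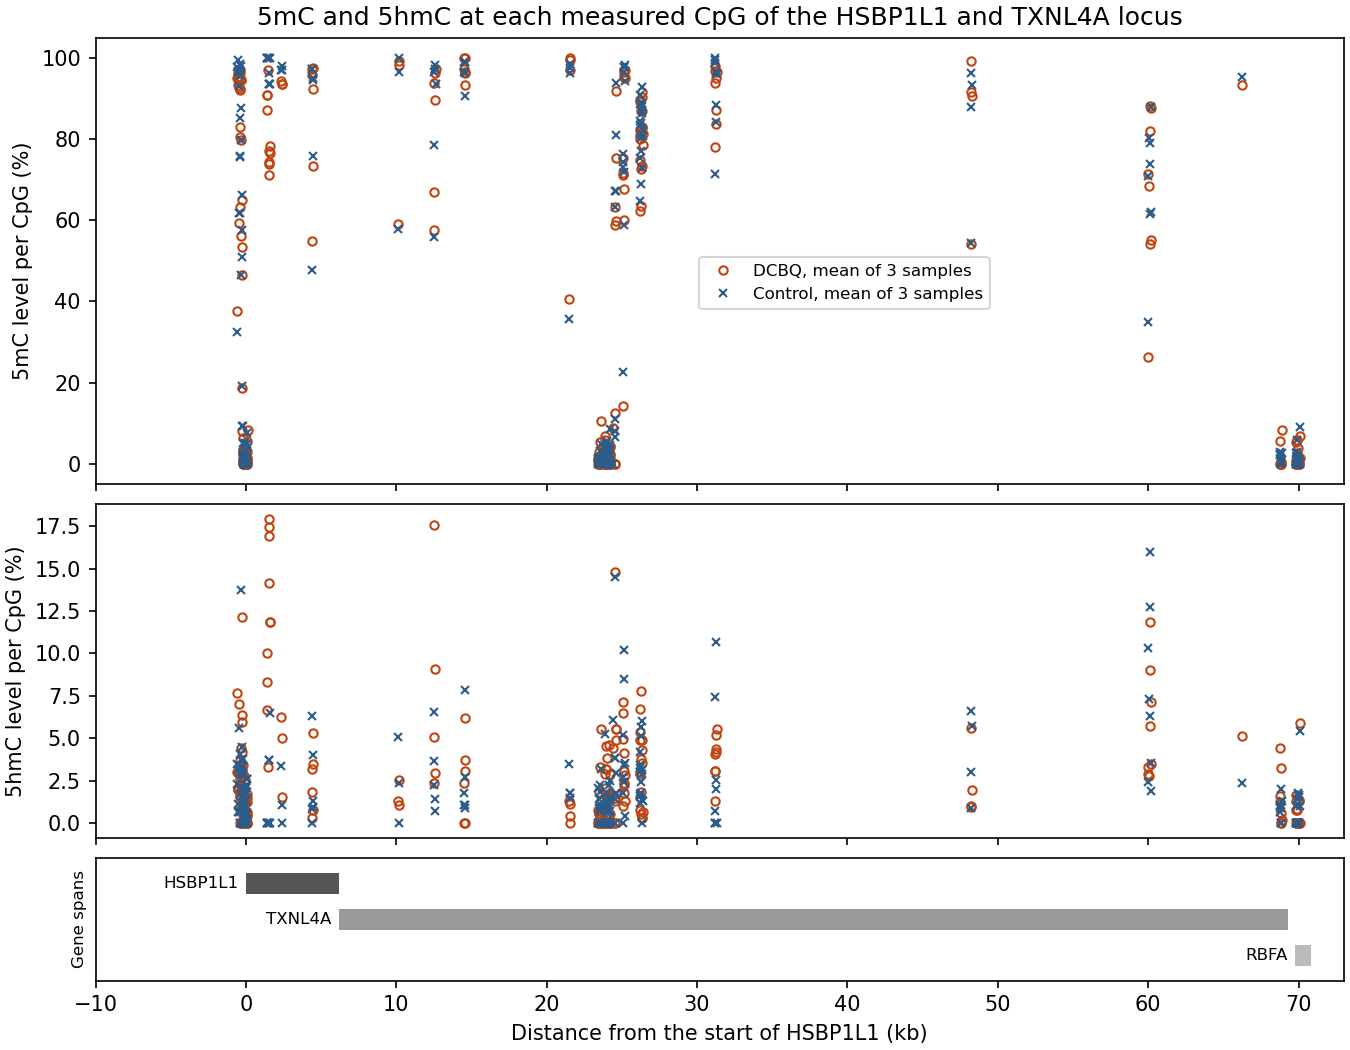
Mean 5mC (top) and mean 5hmC (middle) of each measured CpG, in percent, against the distance from the start of HSBP1L1 in kb, with DCBQ as open circles and control as crosses (means of 3 samples). The bottom bars are the gene spans, with RBFA drawn only as far as the locus reaches. 5mC is near 0 at the HSBP1L1 start, at the inner TXNL4A start and at the TXNL4A and RBFA ends, and the DCBQ points between 71.1% and 78.3% just inside HSBP1L1 have control values of at least 93.5%.

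A small cluster of CpGs inside HSBP1L1 carried most of both differences. The 10 CpGs of the 1 kb tile that begins at 79966001 (positions 79966032 to 79966222) lie 1390 to 1580 bp inside the gene, within 191 bp of each other. The nearest other measured CpGs are 1270 bp below and 783 bp above. Without these 10 CpGs, locus 5mC was 32.6%, 32.7% and 32.5% in DCBQ samples, against 33.2%, 32.8% and 33.0% in controls, a difference of -0.380 points (SE 0.151), still apart by a narrow margin. Thus 60.7% of the summed 5mC difference of the locus lay in them. Without them, 5hmC was 1.86%, 1.80% and 2.06% in DCBQ samples, against 1.65%, 1.85% and 1.68% in controls, and the groups overlapped (difference 0.182 points, SE 0.0996). The 10 CpGs held 68.2% of the summed 5hmC difference.

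In the control samples the tile was close to fully methylated. Mean 5mC of the 10 CpGs was 81.1%, 83.5% and 80.6% in DCBQ1 to DCBQ3, against 100%, 97.5% and 95.6% in Control1 to Control3. The groups were far apart, at 81.8% ± 1.54 in DCBQ and 97.7% ± 2.23 in controls (SD, n = 3 each), a difference of -15.9 points (SE 1.56). The spread within each group was small beside that gap. The same value recurred at several of the CpGs within a sample, such as 73.3% in DCBQ1 and DCBQ2 and 88.9% in Control3. Few shared reads may thus lie behind each mean. All 10 CpGs were lower in DCBQ, 7 of them by at least 10 points and with the groups apart. Of all CpGs, 49.2% were lower, 4.84% lower by at least 10 points and 4.32% lower and apart. Of 210424 tiles of the genome with at least 5 CpGs, 134 (0.0637%) had a 5mC difference at least as low. A loss of at least 10 points with the groups apart was found in 0.331% of tiles. As this contrast chose the locus, nothing further is read from these shares. limma called 0 of the 210424 tiles for 5mC at an adjusted p of 0.05, with 13041 at an unadjusted p under 0.05.

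The CpGs differed along the 191 bp. The first 4 CpGs, at 1390, 1414, 1434 and 1438 bp inside the gene, read 100% in all 3 controls, and at 3 of them some DCBQ samples also read 100%. At 1414 bp, 5mC was 80.0%, 90.9% and 90.9% in DCBQ samples, against 100% in each control. At 1390 bp only DCBQ3 stood lower, with 72.7% against 100% in DCBQ1, DCBQ2 and the 3 controls. The last 6 CpGs, from 1510 to 1580 bp, were lower than every control in every DCBQ sample. At 1510 bp, 5mC was 71.4%, 73.3% and 76.9% in DCBQ samples, against 100% in each control, the largest single difference of the locus (-26.1 points). At 1540 bp it was 73.3%, 73.3% and 66.7% in DCBQ samples, against 100%, 100% and 88.9% in controls. CpGs this close can lie on the same reads, so their similar values are not separate measurements, and the depth behind each value is unknown.

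5hmC was higher in DCBQ at the same 10 CpGs, with a wide spread. The tile mean was 10.8%, 4.55% and 20.2% in DCBQ1 to DCBQ3, against 0%, 0.833% and 3.33% in Control1 to Control3. The groups were apart, with DCBQ3 far above the other DCBQ samples and DCBQ2 close to Control3. DCBQ2 read the same 9.09% at each CpG from 1510 to 1578 bp and 0% at the rest of the 10. Its tile mean may thus rest on very few reads, and so may the separation of the groups. Means were 11.8% ± 7.86 in DCBQ and 1.39% ± 1.73 in controls (SD, n = 3 each), a difference of 10.5 points (SE 4.65). Without DCBQ3 it was 6.30 points. DCBQ3 also had the highest genome-wide 5hmC, 3.617%, where the other 2 DCBQ samples read 3.444% and 3.336% and the controls 3.437%, 3.358% and 3.31%. What part this has in the tile's value was not tested. limma gave an unadjusted p of 0.0145 and an adjusted p of 0.974 over 201896 tiles, of which it called 0 (9747 at an unadjusted p under 0.05). A gain at least as high was found in 197 tiles (0.0976%), and one of at least 10 points with the groups apart in 0.0659%. The tile was chosen by its 5mC loss in these same samples. Over tiles with both marks, the differences of the 2 marks were inversely related (Pearson r = -0.605). A tile chosen in this way would tend to have higher 5hmC, so nothing further is read from this p or these shares.

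At single CpGs of the tile, 5hmC of the groups was apart on the higher side at 2 of 10, where 2.79% of all CpGs were. At 1510 bp it was 16.7%, 9.09% and 25.0% in DCBQ samples, against 0% in each control. At 1568 bp it was 25.0%, 9.09% and 18.2% in DCBQ samples, against 0% in each control. At 1390 bp only DCBQ3 differed from 0, with 30%, and DCBQ3 alone had less 5mC there. At each of the first 4 CpGs, the sample with the lowest 5mC was also the only sample with 5hmC above 0.

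The 2 marks differed in opposite directions and by unequal amounts. Summed over both marks, the tile read 92.0%, 88.0% and 101% in DCBQ samples, against 100%, 98.3% and 98.9% in controls, with overlap (difference -5.48 points, SE 3.80). A sum above 100% shows that the deposited levels of the 2 marks do not add up exactly. Both marks apart in these directions, each by at least 10 points, was found in 64 of 201859 tiles (0.0317%), and both apart at any size in 1.82%. The tile was among those that chose the locus by 5mC, and over tiles in both tables the 2 differences were inversely related (Pearson r = -0.605). Nothing further is read from these shares.

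**Figure D2:**
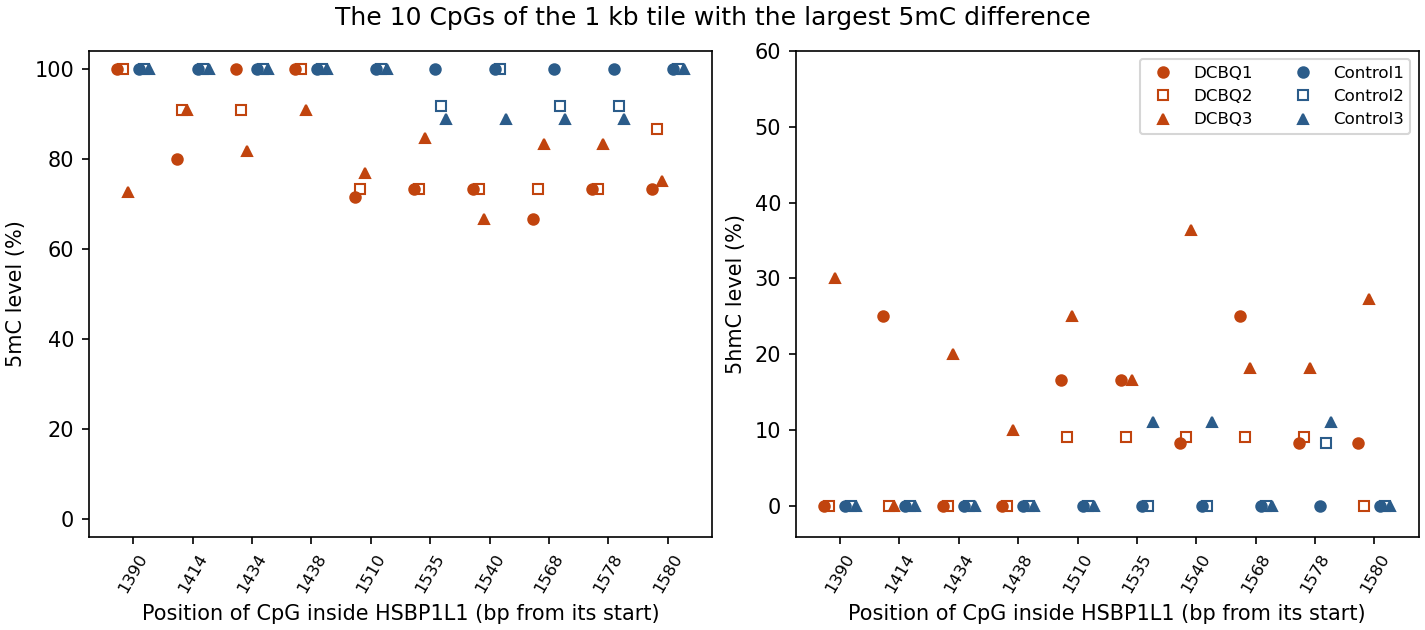
5mC (left) and 5hmC (right), in percent, of the 10 CpGs of the tile that begins at 79966001, by their position in bp from the start of HSBP1L1, with DCBQ1 to DCBQ3 left of Control1 to Control3 at each CpG. Every DCBQ sample is below every control in 5mC from 1510 bp on, and DCBQ3 has the highest 5hmC value at most of the positions.

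The body of HSBP1L1, from 500 bp inside the gene to its end, has 19 measured CpGs, of which these 10 are a part. Its mean 5hmC was 7.58%, 3.26% and 12.2% in DCBQ samples, against 0.995%, 1.27% and 2.74% in controls, apart, with a difference of 6.02 points (SE 2.65). Its mean 5mC was 84.1%, 86.3% and 83.9% in DCBQ samples, against 94.5%, 93.5% and 92.5% in controls, a difference of -8.75 points (SE 0.991). Among gene bodies 13.6% were lower and apart, and limma called 0 of 16665 (1435 at an unadjusted p under 0.05).

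The other 9 CpGs of the body did not share the size of the tile's difference. The 3 CpGs from 79967005 to 79967020 averaged 93.2%, 98.1% and 90.4% 5mC in DCBQ samples, against 96.9%, 98.9% and 96.2% in controls, with overlap. Their 5hmC was 7.21%, 0.952% and 4.58% in DCBQ samples, against 1.11%, 1.15% and 2.15% in controls, again with overlap. The 6 CpGs from 79969045 to 79969113 averaged 84.4%, 85.2% and 86.0% 5mC in DCBQ samples, against 84.3%, 84.3% and 85.4% in controls. Here the direction was the opposite one, by 0.556 points (SE 0.588), and the groups overlapped.

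The part where the 2 genes meet could be described only by its edges. The spans overlap by 10 bp, so the locus has no intergenic stretch between them, and 0 CpGs were measured in the overlap. The last measured CpG below it, at 79969113, is 1700 bp away, and the first above it, at 79974773, is 3951 bp away, which leaves 5659 bp without a value. The lower edge CpG had 5mC of 96.4%, 95.9% and 100% in DCBQ samples, against 96.8%, 94.9% and 91.9% in controls. The upper edge CpG had 52.8%, 65.9% and 58.6% in DCBQ samples, against 64.3%, 46.3% and 62.9% in controls. Both overlapped between the groups. 5hmC at the lower edge was 0%, 2.33% and 0% in DCBQ samples, against 3.70%, 0% and 8.33% in controls. At the upper edge it was 0%, 0% and 4.00% in DCBQ samples, against 8.33%, 6.90% and 0% in controls.

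The whole stretch between the HSBP1L1 promoter and the inner TXNL4A promoter, 23821 bp with 69 CpGs, averaged 47.9%, 49.1% and 48.0% 5mC in DCBQ samples, against 51.3%, 50.1% and 50.4% in controls. The difference of -2.26 points (SE 0.527) includes the 10 CpGs of the tile. The TXNL4A share of that stretch, 43 CpGs, went the other way by 0.242 points (SE 0.589) with overlap.

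Upstream of HSBP1L1, 5mC passed from a methylated flank to an unmethylated promoter over a short stretch. The last CpG with at least 50% in all 6 samples was at 79964353, 290 bp before the start, and the first with less than 10% in all 6 was at 79964422, 221 bp before it. Between them the samples varied: at 79964390, 5mC was 71.1%, 52.6% and 36.7% in DCBQ samples, against 60.4%, 54.3% and 58.1% in controls. The 23 CpGs more than 250 bp upstream averaged 77.4%, 77.9% and 76.6% in DCBQ samples, against 77.5%, 76.4% and 76.9% in controls. The 29 CpGs within 200 bp upstream averaged 0.838%, 0.417% and 0.762% in DCBQ samples, against 1.11%, 0.783% and 0.931% in controls. The groups overlapped on both sides of the edge.

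In the methylated flank, 8 of the 23 CpGs were higher in DCBQ and 15 lower. The largest difference was on the higher side: at 79964288, 5mC was 94.6%, 92.7% and 96.6% in DCBQ samples, against 89.6%, 68.6% and 81.4% in controls, so the groups were apart on the higher side (14.8 points). Its 5hmC was 0% in each DCBQ sample, against 4.17%, 20% and 17.1% in controls. This is the only CpG of the locus with a 5mC gain of at least 10 points and the only one with a 5hmC loss of that size, and it was singled out after its values were seen.

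Upstream of the inner TXNL4A start the unmethylated stretch was longer. Going upstream, the first CpG with at least 50% in all 6 samples was at 79989217, 654 bp away, and the last one before it with less than 10% in all 6 was 305 bp away. The 30 CpGs in the first 550 bp downstream of this start averaged 1.39%, 1.86% and 0.917% in DCBQ samples, against 1.15%, 0.877% and 0.773% in controls, with overlap. Beyond the edge, the 19 CpGs from 602 to 1289 bp upstream averaged 64.8%, 63.1% and 62.1% in DCBQ samples, against 68.1%, 65.5% and 65.3% in controls. These groups were apart by a narrow margin (-2.99 points, SE 1.19), with no accompanying 5hmC difference (0.00813 points, SE 0.723, overlap). The separation depends on the bounds of the stretch, which were set by hand. In the 1 kb tile that begins at 79989001 and holds these CpGs, the groups overlapped in 5mC. Of all 1 kb tiles, 8.11% were lower and apart.

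**Figure D3:**
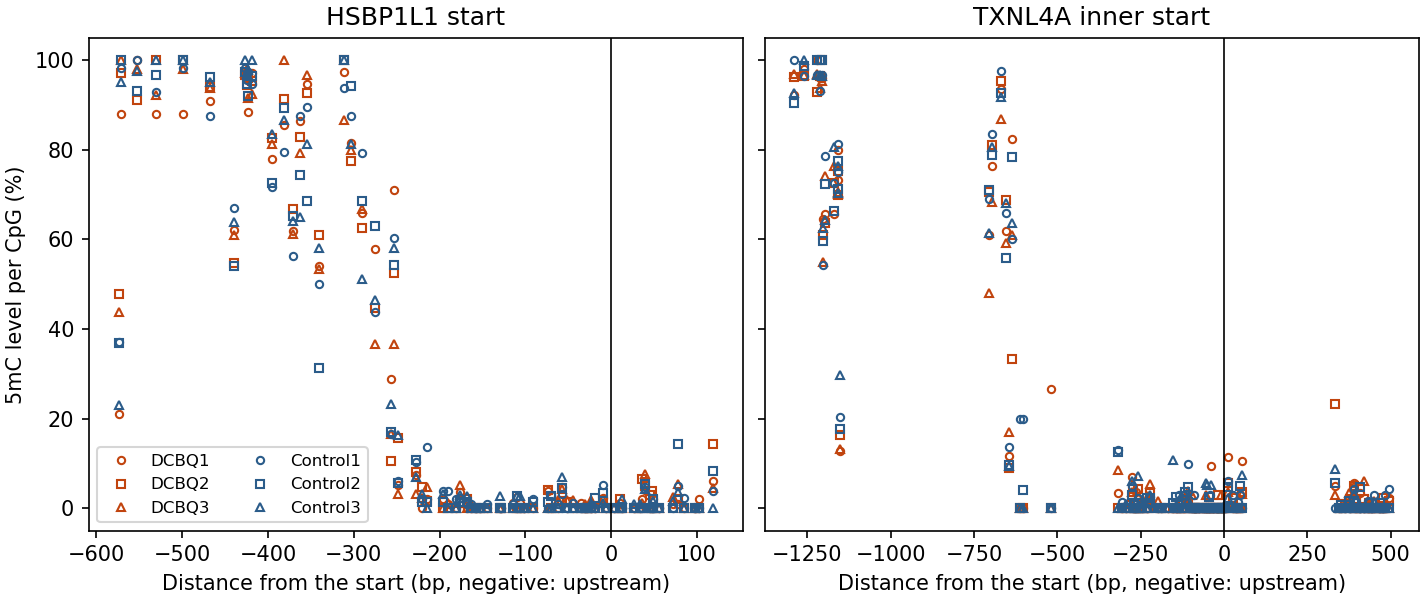
5mC of each CpG in each sample, in percent, against the distance in bp from the start of HSBP1L1 (left) and from the inner start of TXNL4A (right), each in the direction of transcription, with DCBQ1 to DCBQ3 and Control1 to Control3 as marked. Both starts lie in CpGs near 0% in all samples, and the nearest upstream CpG with at least 50% in all 6 samples is 290 bp before HSBP1L1 and 654 bp before the inner TXNL4A start.

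TXNL4A as a whole differed little. Its body, 159 CpGs up to 500 bp below its outer start, averaged 39.1%, 38.8% and 38.9% 5mC in DCBQ samples, against 40.0%, 39.2% and 39.6% in controls. The groups were apart by -0.659 points (SE 0.235), of which -0.243 points remained after the genome-wide mean of each sample was subtracted. Its 5hmC was 2.18%, 2.21% and 2.19% in DCBQ samples, against 2.00%, 2.09% and 2.06% in controls, apart by 0.147 points (SE 0.0284). Genome-wide 5hmC was 3.444%, 3.336% and 3.617% in DCBQ samples, against 3.437%, 3.358% and 3.31% in controls. It was not subtracted from this difference, so what part it has in the 0.147 points was not tested. Of the 159 CpGs, 80 were lower (49.2% of all CpGs), 53 higher and 26 equal in 5mC. The groups were apart at 3 on the lower side (4.32% of all CpGs) and 3 on the higher side (3.11% of all CpGs).

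Among tiles with at least 5 CpGs, the tile of TXNL4A that begins at 79977001 had the largest difference in each mark after the tile inside HSBP1L1. Its 5 CpGs with 5hmC averaged 10.8%, 5.49% and 5.94% in DCBQ samples, against 2.04%, 4.97% and 1.70% in controls. The groups were just apart, as DCBQ2 and Control2 were close, with a difference of 4.51 points (SE 1.99), an unadjusted limma p of 0.0418 and an adjusted p of 0.974 over all tiles. Its 6 CpGs with 5mC averaged 83.1%, 84.0% and 83.6% in DCBQ samples, against 90.5%, 82.9% and 86.7% in controls. Here the groups overlapped, since Control2 read below the DCBQ samples (difference -3.13 points, SE 2.21). The 5hmC gain was uneven over the CpGs of this tile, with a median difference of 1.54 points. At 1 of its CpGs, 79977236, both marks were apart. There 5mC was 94.7%, 86.7% and 87.2% in DCBQ samples, against 100%, 100% and 95.2% in controls. Its 5hmC was 5.56%, 11.1% and 10.6% in DCBQ samples, against 0%, 0% and 2.13% in controls. This CpG was singled out after its values were seen. Of all CpGs, 4.32% were lower and apart in 5mC, and 2.79% were higher and apart in 5hmC.

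The tile with the third largest 5mC difference among those with at least 5 CpGs begins at 79989001, and covers the upstream edge of the inner start. Its 20 CpGs averaged 62.9%, 59.95% and 59.0% in DCBQ samples, against 64.7%, 62.2% and 62.1% in controls, a difference of -2.40 points (SE 1.45) with overlap. Its 5hmC differed by -0.0749 points (SE 0.828).

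The tiles that hold gene ends showed no separation. The tile of the HSBP1L1 start (73 CpGs) averaged 25.2%, 25.7% and 24.9% 5mC in DCBQ samples, against 25.5%, 25.0% and 25.2% in controls. The tile of the inner TXNL4A start (77 CpGs) averaged 0.894%, 1.02% and 0.860% in DCBQ samples, against 1.14%, 0.842% and 0.927% in controls. The tile at the outer TXNL4A end (8 CpGs) averaged 1.30%, 2.34% and 1.75% in DCBQ samples, against 0.775%, 2.60% and 1.35% in controls. RBFA, a mitochondrial ribosome-binding factor gene, starts 497 bp above TXNL4A, with 0 measured CpGs in that gap. Its first 26 CpGs averaged 1.13%, 1.45% and 1.33% in DCBQ samples, against 0.712%, 1.44% and 1.32% in controls. All 4 tiles overlapped between the groups.

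Across the 12 tiles of the locus with at least 5 CpGs, 7 were lower in 5mC, where 59.8% of all tiles were, and 5 higher. The groups were apart in 1, the tile inside HSBP1L1, where 8.11% of all tiles were lower and apart. The other 11 tiles differed by between -3.13 and 0.561 points. In 5hmC, 9 tiles were higher and 3 lower (47.2% of all tiles), with 2 apart on the higher side (5.55% of all tiles), and the 11 others differed by between -1.79 and 4.51 points.

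**Figure D4:**
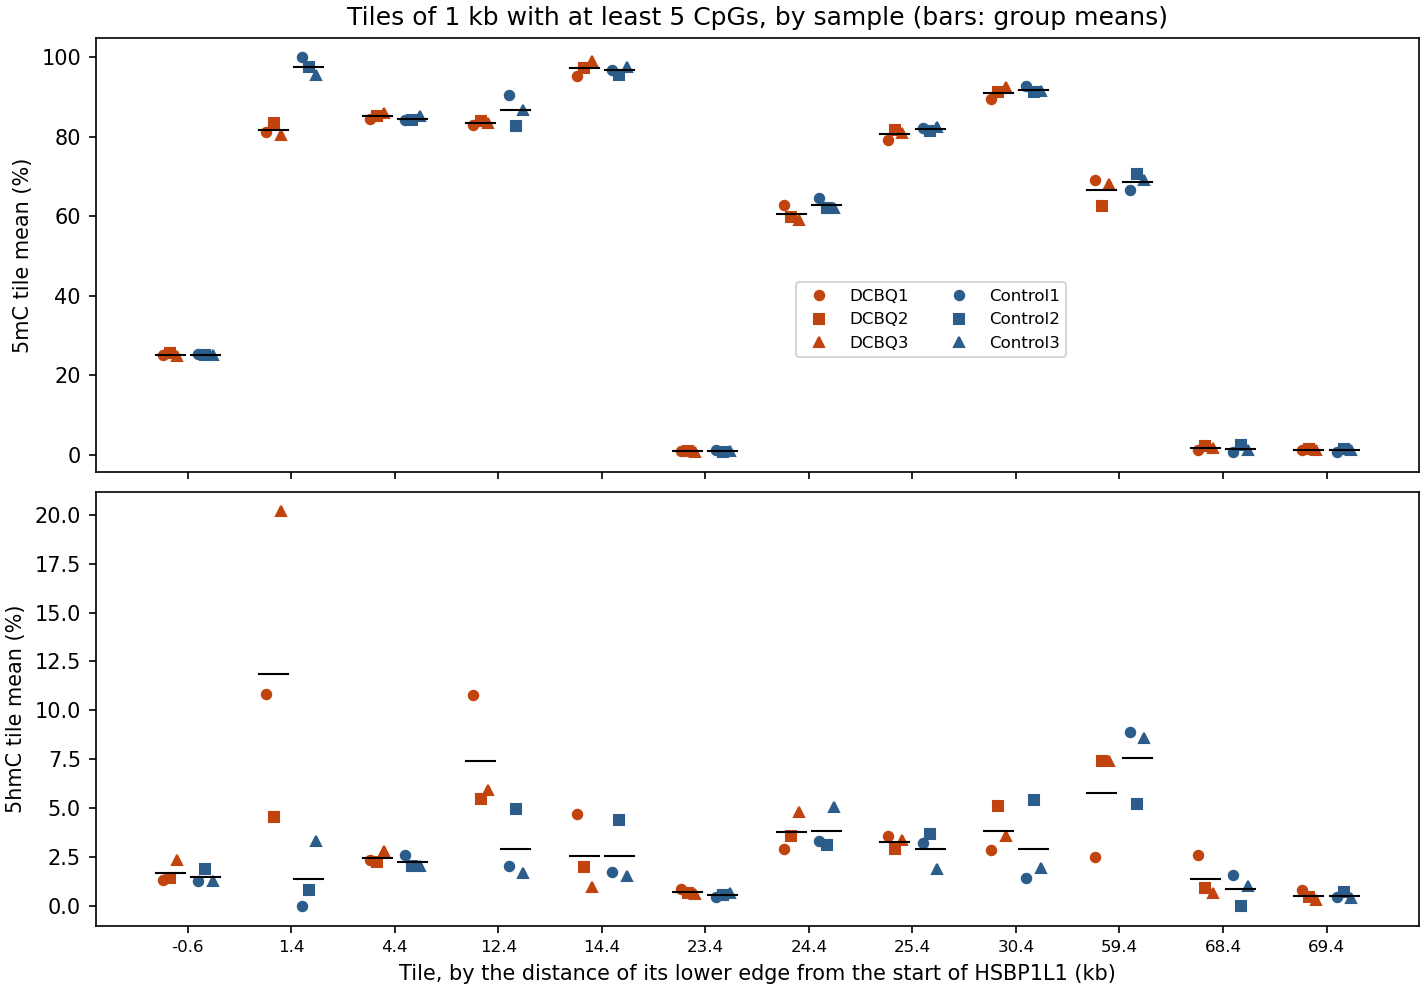
Mean 5mC (top) and mean 5hmC (bottom) of each 1 kb tile with at least 5 CpGs, in percent, by the distance of the tile's lower edge from the start of HSBP1L1 in kb, with DCBQ1 to DCBQ3 left of Control1 to Control3 and bars for group means. The tile inside HSBP1L1 alone separates the groups in 5mC, at 80.6% to 83.5% in DCBQ and 95.6% to 100% in control samples.

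Over the 278 CpGs in both tables, the differences of the 2 marks were inversely related (Pearson r = -0.734, Spearman rho = -0.537), and without the 10 CpGs of the tile r was -0.538 and rho -0.486. Over 3044743 CpGs of the genome in which both marks varied, r was -0.602 and rho -0.562. Without those 10 CpGs the relation at the locus was thus no stronger than over the whole tables. The CpGs are not independent, share their samples and depth, and the 2 marks at a CpG may have been computed from common reads, so no p is given.

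**Figure D5:**
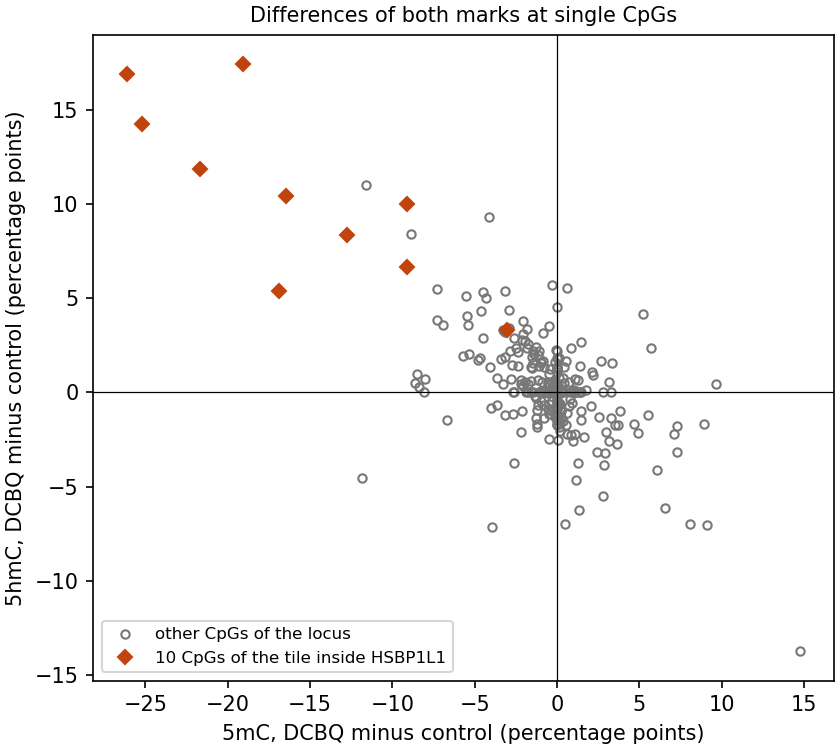
Difference of 5hmC against difference of 5mC (both DCBQ minus control, in percentage points) for each CpG of the locus in both tables, with the 10 CpGs of the tile inside HSBP1L1 as filled diamonds and the others as open circles. The 10 CpGs all lie on the side of lower 5mC and higher 5hmC, by between 3.03 and 26.1 points in 5mC and between 3.33 and 17.4 points in 5hmC.

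The 5 gene bodies whose 5mC deviated over the 6 samples most like that of HSBP1L1, among 16664 others, were PSMG3, TAT, APLP1, CCN2 and MUC19, at root mean square distances of 1.36, 1.59, 1.67, 1.77 and 1.80 points. PSMG3, a proteasome assembly chaperone, averaged 71.3%, 72.3% and 70.4% in DCBQ samples, against 77.7%, 78.6% and 76.9% in controls. APLP1, a relative of the amyloid precursor protein, averaged 57.6%, 58.8% and 57.4% in DCBQ samples, against 67.0%, 64.1% and 68.6% in controls. In each of the 5 the groups were apart on the lower side, where 13.6% of all bodies were. As they were picked for their likeness to HSBP1L1, this follows from the choice and is no separate result.

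Genes related to either member were examined as lists, with 0 gene ends and 0 gene bodies past the threshold. Here the end is the CpG-denser end of a gene, and limma called 0 of 15822 ends (1041 at an unadjusted p under 0.05). In DCBQ, 60.2% of all ends were lower, and so were 69.7% of all bodies. Of the 25 genes of heat shock factor regulation and heat shock response, 24 had a measured end, 16 lower and 8 higher, with a median difference of -0.132 points against -0.109 over all ends. Among their 22 bodies, 15 were lower and 7 higher, with a median of -0.186 against -0.380 over all bodies. HSBP1, the paralogue of HSBP1L1, had 5mC at its end of 12.0%, 11.4% and 11.1% in DCBQ samples, against 12.0%, 12.7% and 12.6% in controls, apart by a narrow margin (-0.960 points, SE 0.343, limma adjusted p = 0.761), where 8.32% of all ends were lower and apart. The end of HSF1, the factor that HSBP1 binds, read 1.20% ± 0.0175 in DCBQ and 1.21% ± 0.263 in controls (SD, n = 3 each).

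Of the 32 genes of the U5 and U4/U6.U5 particles, 27 had a measured end, 15 lower and 12 higher, with a median difference of -0.0455 points. Among their 25 bodies, 18 were lower and 7 higher, with a median of -0.440 points. TXNL4B, the paralogue of TXNL4A, read 1.68% at its end in DCBQ and 1.51% in controls. PRPF8, the large U5 protein at the centre of the spliceosome, read 57.6% in its body in DCBQ and 58.7% in controls (limma adjusted p = 0.695). The end of SNRPD1, a Sm core protein, was apart on the higher side, where 3.67% of all ends were, at 26.9%, 27.0% and 27.6% in DCBQ samples, against 25.7%, 26.1% and 26.4% in controls (1.11 points, limma adjusted p = 0.798).

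5mC was also read at marker genes of cell types. An end is the CpG-denser end of a gene and need not hold its promoter, so these levels cannot check the label of the cells. The 12 epithelial and urothelial marker genes had a median end level of 2.17% in DCBQ and 2.23% in controls, the 6 measured of 10 leukocyte markers 75.8% in DCBQ and 79.0% in controls, and the 3 measured of 7 fibroblast and endothelial markers 81.8% in DCBQ and 80.4% in controls. Single markers departed from these medians. Among the epithelial ones, the end of TP63 read 82.4% in DCBQ and 82.7% in controls, and that of GATA3 56.8% in DCBQ and 52.2% in controls. The end of CORO1A, a leukocyte marker, read 1.62% in DCBQ and 1.78% in controls.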

How the data were processed

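RRBS and oxRRBS libraries of SV-HUC-1 cells were made from genomic DNA, 3 of each per condition, per the labels. The submitters' processing notes name hg38, Trim Galore, cutadapt and BSMAP 2.90. Their settings are not stated, nor how the authors combined the 2 kinds of library into 5mC and 5hmC. For each CpG the authors deposited a fraction between 0 and 1, shown here as percent. Each table's columns name a condition and a number only, and match an RRBS and an oxRRBS library alike. The deposited tables are marked as holding CpGs with at least 5 reads and give no depth, so the depth behind each value is unknown, and intervals that need it are left out. No column belonged to another sample, and no columns were identical.

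Gene spans, and starts with strand, came from RefSeq tables of GRCh38.p14. These hold no exons, so exons, introns and untranslated regions were not analysed here. Positions in the tables are those of the plus-strand C of a CpG: all 33 and 37 CpGs of the printed sequences coincided with one. Levels were averaged with equal weight over CpGs in 1 kb tiles, gene ends (1500 bp outside to 500 bp inside, the end with more CpGs) and gene bodies (the rest of the span), with a minimum of 5 CpGs for a test. limma 3.58.1 in R 4.3.3 (lmFit, eBayes with trend) was run on the untransformed levels over all units of the genome, adjusted by Benjamini-Hochberg with a threshold of 0.05 (single CpGs also needed a difference of 10 points). On simulated tiles, 20000 with the spread of the real 5mC tiles, 56% of shifts of 10 points and 96% of 20 points were recovered. For 5hmC these were 12% and 96%. Unshifted tiles gave 8 false calls for 5mC and 6 for 5hmC. Many tiles were shifted at once, by 5 to 30 points, which eases the adjusted threshold, and the simulated levels had no bounds at 0% and 100%. The recovered shares therefore overstate what could be called for a lone tile among 210424. Other values came from Python 3.11.15, numpy 2.4.6, pandas 2.3.3 and scipy 1.17.1, plots from matplotlib 3.10.9.

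Whether the samples of a group were separate cultures is not stated in the labels, so errors and p-values reflect only how these samples vary, possibly for technical reasons. The locus, the gene lists and the tests were chosen with earlier results of these data known. Named in full were the tiles with the 3 largest 5mC and 2 largest 5hmC differences (of those with at least 5 CpGs), tiles with gene ends, the CpGs of the tile with the largest 5mC difference and those beside the place where the genes meet, the 5 most alike gene bodies, the lists, and genes within 250 kb. Alternatives were another summary over CpGs, other minimums of CpGs, shifted tiles, other gene ends, a logit scale, subtraction of genome-wide means, each sample left out, and the replicate number as a block.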

Additional observations from a re-analysis of the deposited data

How the results depend on the processing

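The direction of the 5mC difference of the tile inside HSBP1L1 (-15.9 points) was kept under each alternative run. Leaving out 1 sample gave -17.0 to -14.8 points, and the median over its CpGs gave -21.4. This tile and the HSBP1L1 body were chosen on this contrast and their groups were apart. Leaving out 1 sample therefore could not reverse either direction, and these ranges show only how the size varied. For 5hmC of that tile, an alternative set chosen after seeing the data, leaving out 1 sample gave 6.30 to 14.1 points. The HSBP1L1 body ranged from -9.54 to -8.24 and the TXNL4A body from -0.853 to -0.468 points with 1 sample left out, and subtracting genome-wide means left -0.243 points for TXNL4A. The locus mean of 5mC ranged from -1.05 to -0.783 points, was -0.516 after that subtraction and reversed to 0.167 points when each sample's median over CpGs replaced its mean (the median of the differences at single CpGs was -0.0333 points); the cause was not tested. The locus mean of 5hmC ranged from 0.329 to 0.734 points with 1 sample left out, was 0.455 after genome-wide means were subtracted and was 0 with the median. limma called 0 tiles, gene ends, gene bodies and 5mC CpGs under the alternatives, except for 1 tile without a minimum of CpGs, on chromosome 2 from 113783001. The 3 called 5hmC CpGs of the genome (chromosome 8, position 102600710, chromosome 17, position 81208674, and chromosome 18, position 71299247), named after their values were seen and outside the locus, were 0 calls with any 1 sample left out. The depth per CpG is unknown, which limits every single-CpG value.

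Correlations of the deviations of samples with the same number lay between -0.0345 and 0.00924, which gave no sign of pairing. Noise in the single levels can hide a shared culture or batch, so this does not exclude pairing by number. With the replicate block limma called 0 5hmC CpGs and 0 of every other unit, and the locus 5hmC difference of 0.552 points had an exact paired permutation p of 0.25, the smallest that 3 pairs allow.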

Other observations

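Among the 6 protein-coding genes within 250 kb of the locus (SLC66A2, KCNG2, CTDP1, ADNP2, RBFA and PARD6G), 0 passed the limma threshold at their end or body. Of their 6 bodies, 4 were lower and 2 higher, with a median 5mC difference of -0.380 points, the same as over all bodies to 3 digits. RBFA, the gene next to TXNL4A, had a body level of 84.9%, 87.5% and 83.8% in DCBQ samples, against 88.6%, 85.3% and 86.3% in controls, with overlap. KCNG2, a potassium channel subunit gene with 767 measured body CpGs, was the 1 body of the 6 whose groups were apart, on the lower side, where 13.6% of all bodies were. It read 76.7%, 76.7% and 76.3% in DCBQ samples, against 76.9%, 77.1% and 77.1% in controls (-0.466 points). The bodies of these neighbours differed by between -1.35 and 0.0571 points. The HSBP1L1 body, at -8.75 points, was chosen for its 5mC difference, so its larger size beside them follows from that choice.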
